A study of Mus musculus with 92 samples.

Results

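The 160 genes described here are the solute carrier (Slc) genes that were expressed in control villi of the mouse intestine. They are the protein-coding genes whose symbol is Slc followed by a number and that were selected on a mean of at least 10 CPM (counts scaled to a fixed library total) over 5 heterozygous Rosa26-CreER villus libraries. Of 371 protein-coding Slc genes, among 54532 genes in the tables, 160 reached that level and 211 did not. Apart from symbol and gene type, membership thus used the level in heterozygous villi alone. Just inside lay Slc16a13 at 12.8 CPM, Slc7a6os at 10.5 CPM and Slc25a42 at 10.2 CPM, and just outside lay Slc25a32 at 9.39 CPM, Slc1a5 at 9.37 CPM and Slc27a1 at 9.13 CPM. Since the level in those 5 libraries chose the members, every contrast that uses them is given as a description with no test. Sorted by cargo, the members were 27 nucleotide sugar and organelle carriers, 23 carriers of bile acids, lipids and organic ions, 23 mitochondrial carriers, 21 carriers of amino acids and peptides, 21 of ions, 19 of metals, 14 of vitamins, nucleosides and heme, and 10 of sugars. The remaining 2 share the symbol without being carriers: Slc9a3r1 encodes the scaffold protein NHERF1, and Slc7a6os is a neighbour of Slc7a6.

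Solute carriers are membrane proteins that move small molecules across a membrane along or against a gradient. In the intestine, enterocytes of the villus place one set at the brush border facing the lumen, where several couple uptake to sodium or protons, and another set at the basolateral side, from which nutrients pass to the blood. Stem and progenitor cells of the crypt divide and their daughters switch on this equipment as they move up the villus. Eif4g2 encodes a translation initiation factor (also called DAP5) related to eIF4G.

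All mice and cultures carried CreER, a Cre recombinase switched on by tamoxifen or its metabolite 4-hydroxytamoxifen (4-OHT). Tissue came from Eif4g2(flox/flox) mice, called homozygous here, and Eif4g2(flox/+) mice, called heterozygous, so that the controls can lose 1 allele. With Rosa26(CreER), which acts in all tissues, there were 5 heterozygous and 4 homozygous crypt libraries and 5 and 5 villus libraries from day 9 of tamoxifen. With Vil1(CreER), which acts in the intestinal epithelium, there were 4 heterozygous and 3 homozygous crypt libraries and 4 and 6 villus libraries from 3 months, after 4 daily doses of 100 mg/kg. Crypts and villi of a driver came from the same animals where both exist. Small intestinal cultures in ENR medium (EGF, Noggin, Rspondin), all with Rosa26(CreER), were 3 Eif4g2(flox/flox) organoid lines with DMSO or 0.5 µM 4-OHT for 24 hours (first set, day 6), and organoids all given 4-OHT that were flox/flox, flox/+ or Eif4g2(+/+), with 4 libraries each (second set). Spheroids, labelled as fetal intestinal, received DMSO or 4-OHT and came from 6 flox/flox and 5 flox/+ lines. Several line codes share a number stem, and some stems occur in 1 genotype only. The labels do not explain the stems. A last set of organoids received DMSO or 3, 5 or 10 µM A-485, an inhibitor of the acetyltransferases p300 and CBP, for 4 days in 4 lines. Of these the first was Eif4g2(+/+) and the other 3 were flox/flox without 4-OHT. The intestinal segment of the crypts and villi, the sex of the animals and, apart from the fetal origin of the spheroids, their age were not given in the sources used here. Library names of the second organoid set carry a code of their own each, which the labels do not explain.

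Library totals ran from 8652040 to 37611126 counts, and no library pair looked like 1 library deposited in duplicate. Eif4g2 was lower in each homozygous or 4-OHT-treated flox/flox group than in its controls without overlap: 48.32 to 61.33 against 308.8 to 382.1 CPM in Rosa26-CreER villi, 127 to 178.1 against 355.9 to 454.4 CPM in Vil1-CreER villi, and 230.1 to 244 against 478 to 498.4 CPM in Vil1-CreER crypts. Mitochondrially encoded genes took a mean 35.7% of counts in homozygous and 23.3% in heterozygous Vil1-CreER crypts, and 18.9% and 8.55% in Rosa26-CreER crypts; their part in the crypt results was not tested. The Y-linked gene Ddx3y was above 1 CPM in all 10 heterozygous Rosa26-CreER libraries but in 1 of 4 homozygous crypt and 2 of 5 homozygous villus libraries, so that sex and genotype are partly mixed with that driver. In these bulk samples, fewer cells of a type and less RNA per cell cannot be told apart.

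The promoters of 6 members, sugar carriers and the zinc carrier Slc30a2, are shown, picked from the genes named in the results below. Each is the stretch from 250 bases before to 50 bases after the RefSeq start in GRCm38.p6, 5′ to 3′ on the gene's strand, with any match to a searched motif in capitals. Slc5a1 lies at chr5:33103969-33104268 on the plus strand, Slc2a2 at chr3:28697653-28697952 (plus), Slc2a5 at chr4:150119094-150119393 (plus), Slc5a4a at chr10:76147201-76147500 (plus), Slc5a4b at chr10:76110969-76111268 (minus) and Slc30a2 at chr4:134343216-134343515 (plus).
Slc5a1: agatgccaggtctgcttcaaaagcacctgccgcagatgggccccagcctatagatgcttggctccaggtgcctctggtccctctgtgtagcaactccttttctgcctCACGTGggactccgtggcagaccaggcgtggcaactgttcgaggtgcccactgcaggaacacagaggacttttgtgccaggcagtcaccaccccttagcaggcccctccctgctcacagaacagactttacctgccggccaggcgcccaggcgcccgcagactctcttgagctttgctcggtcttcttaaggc
Slc2a2: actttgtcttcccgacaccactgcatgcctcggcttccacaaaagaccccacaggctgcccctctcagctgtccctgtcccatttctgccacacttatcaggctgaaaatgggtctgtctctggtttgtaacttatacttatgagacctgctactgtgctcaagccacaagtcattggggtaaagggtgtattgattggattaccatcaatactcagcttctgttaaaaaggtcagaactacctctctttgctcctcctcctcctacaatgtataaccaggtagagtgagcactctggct
Slc2a5: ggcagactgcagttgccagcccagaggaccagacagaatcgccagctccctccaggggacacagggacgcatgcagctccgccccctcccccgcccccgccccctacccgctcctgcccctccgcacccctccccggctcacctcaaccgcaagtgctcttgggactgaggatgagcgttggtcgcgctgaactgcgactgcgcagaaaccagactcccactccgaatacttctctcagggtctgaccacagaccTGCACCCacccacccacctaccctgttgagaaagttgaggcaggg
Slc5a4a: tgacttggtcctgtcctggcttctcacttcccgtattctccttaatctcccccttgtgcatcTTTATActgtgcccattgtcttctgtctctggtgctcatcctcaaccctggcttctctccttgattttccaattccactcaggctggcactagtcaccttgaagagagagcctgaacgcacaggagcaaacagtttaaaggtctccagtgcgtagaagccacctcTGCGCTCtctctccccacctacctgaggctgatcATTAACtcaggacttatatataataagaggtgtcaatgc
Slc5a4b: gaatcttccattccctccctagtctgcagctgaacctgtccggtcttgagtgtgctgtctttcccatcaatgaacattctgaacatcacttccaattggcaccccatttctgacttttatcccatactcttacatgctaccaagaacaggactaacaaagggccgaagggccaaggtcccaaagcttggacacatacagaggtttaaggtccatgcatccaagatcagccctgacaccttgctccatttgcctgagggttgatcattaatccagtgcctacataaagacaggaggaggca
Slc30a2: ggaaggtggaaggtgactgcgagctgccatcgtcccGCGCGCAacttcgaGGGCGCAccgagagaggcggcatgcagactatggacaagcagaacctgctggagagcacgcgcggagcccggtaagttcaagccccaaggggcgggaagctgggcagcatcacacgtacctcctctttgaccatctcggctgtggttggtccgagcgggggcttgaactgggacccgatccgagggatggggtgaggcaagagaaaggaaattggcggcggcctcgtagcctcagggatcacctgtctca
RefSeq promoters were found by symbol for 125 of the 160 members, which have 157 promoters among 32851 in the table. Both strands were searched for GTTAAT, a motif of the HNF1 type, for CAAAGTC of the HNF4 type and for TTTATNG of the CDX type. The search also covered AGATAA, bound by zinc finger factors of the Gata family, the basal promoter element TATAAA, the metal response element cores TGCACNC and also TGCGCNC, and the E-box CACGTG. Slc5a1 held CACGTG beginning at -143 from the start, Slc2a5 held TGCACNC at +6, and Slc30a2 held TGCGCNC at -214 and -200 on the opposite strand. Positions are relative to the RefSeq start, and whether transcription began there in these samples was not tested. Slc5a4a held TGCGCNC at -23 and, on the opposite strand, TATAAA at -188 and GTTAAT at +12. Slc2a2 and Slc5a4b held no match, nor did the promoter of Slc5a11, which was searched but is not shown. TGCGCNC was present in 26.1% of member promoters and 15.4% of all promoters, and CACGTG in 14% and 7.15%. The shares were 7.64% and 7.1% for GTTAAT, 5.1% and 4.44% for CAAAGTC, 5.73% and 10.9% for TTTATNG, 7.01% and 11.2% for AGATAA, 8.28% and 13.6% for TATAAA, and 15.9% and 12.6% for TGCACNC. Median GC content was 61% for the members' promoters and 52.7% for all, so these shares are not independent of base composition.

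Per kilobase of transcript, the highest mean levels in heterozygous Rosa26-CreER villi belonged to Slc5a1, the sodium-glucose cotransporter SGLT1, at 1005 CPM per kb, and Slc25a5, a mitochondrial ADP/ATP carrier, at 940 CPM per kb. The next 8 were Slc9a3r1 (894), Slc27a4 (506), Slc46a1 (315), Slc6a19 (264), Slc6a8 (258), Slc26a6 (234), Slc25a3 (221) and Slc2a5 (204 CPM per kb). These encode, in turn, NHERF1, a fatty acid carrier, a folate and heme carrier, a neutral amino acid carrier, the creatine carrier, an anion exchanger, the mitochondrial phosphate carrier and the fructose carrier GLUT5. The 160 genes together took a mean 4.06% of counts in these villi and 1.35% in the heterozygous crypts of the same driver. These villus libraries chose the members, so the higher share in villi is tied to the rule.

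In Vil1-CreER heterozygous mice, 127 of 159 tested members were higher in villi than in crypts and 16 were lower, with a median log2 difference of 1.55 against -0.08 over all genes tested (edgeR quasi-likelihood test, Benjamini-Hochberg adjusted p under 0.05 throughout). The direction is tied to how members were chosen, from villus levels of the other driver. Over all genes, 67.9% were called, 32.7% higher and 35.2% lower. Slc5a1 stood at 239.1, 400.2, 462.5 and 532.4 CPM in the 4 crypt libraries and at 2247, 3045, 3177 and 3327 CPM in the 4 villus libraries. The groups did not overlap, and the log2 difference was 2.89 (SE 0.25, adjusted p = 3.15e-06). The largest differences without overlap were those of the lactate carrier Slc5a12 (log2 5.12), Slc7a15 (4.91), the thiamine carrier Slc19a3 (4.73) and the proton-coupled organic cation exporter Slc47a1 (4.71). Members with the opposite pattern included Slc7a1, which takes up cationic amino acids (log2 difference -2.76), and Slc38a1, a neutral amino acid carrier (-1.64). The chloride cotransporter family member Slc12a8 and the thiamine carrier Slc19a2 were also lower in villi.

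With Vil1-CreER, members mostly fell in homozygous crypts, whereas in homozygous villi similar numbers moved in each direction. In crypts 82 of 159 tested members were lower and 6 higher, where 17.7% of all genes were lower, 11.6% higher and 29.3% called. In villi 46 members were lower and 34 higher, where 21.6% of all genes were lower, 20.9% higher and 42.5% called. The median log2 change of the members was -0.51 in crypts and -0.02 in villi, against 0.01 and 0.05 for all genes tested. The member left untested for its low counts was Slc16a9, at most 0.68 CPM in any Vil1-CreER library. Among the 211 Slc genes below the villus level, 27 of 116 tested were lower and 16 higher in crypts, and 20 of 103 were lower and 35 higher in villi. Leaving out 1 crypt library at a time gave 57 to 100 called members, with 57 when homozygous replicate 1 was left out.

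**Figure D1:**
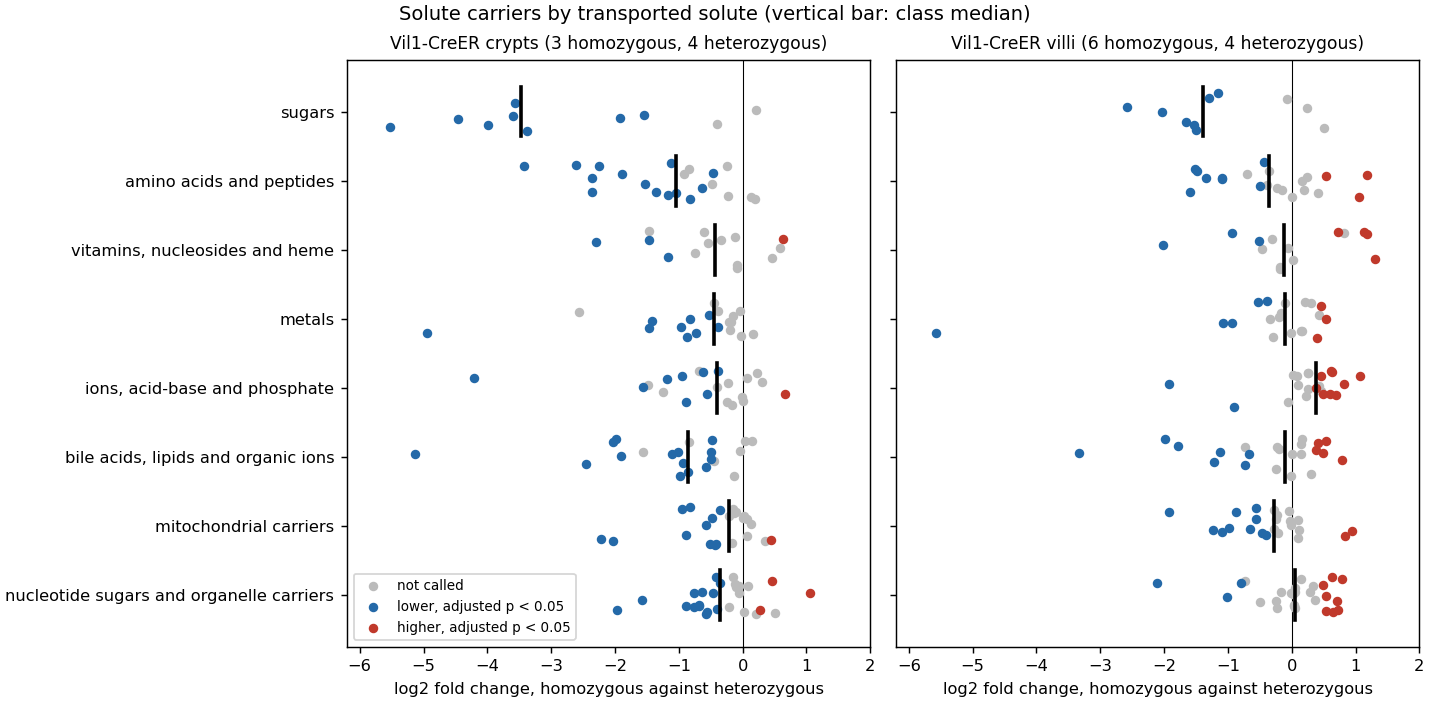
Log2 fold change (homozygous against heterozygous) of each tested member in Vil1-CreER crypts (3 against 4 libraries) and villi (6 against 4), by cargo class; points are genes coloured by their call and bars are class medians. The sugar class has the lowest crypt median, -3.47, and the ion class is above 0 in villi at 0.38.

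Other cell types moved in the same contrasts. In Vil1-CreER villi, 6 of 6 goblet markers were lower (summed level 1200 to 2145 against 6866 to 11440 CPM), as were 5 of 5 enteroendocrine, 4 of 4 tuft and 7 of 9 immune markers (immune sum 143.6 to 1550 against 2883 to 5207 CPM). Of 15 enterocyte markers outside the Slc genes, 5 were lower in villi, with overlapping sums of 55040 to 97840 and 62120 to 80700 CPM. In crypts 8 of the 15 were lower (1535 to 3463 against 3147 to 8200 CPM), with 4 of 6 stem, 5 of 6 goblet and 4 of 4 Paneth markers. Of 5 markers of the proximal small intestine, 2 were higher and 2 lower in villi (2334 to 4368 against 5022 to 7696 CPM), with lactase (Lct) at a log2 change of -1.47. The part of these shifts in the members' results was not tested.

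Among the 10 sugar carriers, 8 fell in Vil1-CreER crypts and 7 in villi, and none rose in either. The class counts here and below stand against 17.7% of all genes lower and 11.6% higher in crypts. In villi those shares were 21.6% and 20.9%. Slc2a2, the basolateral glucose and fructose carrier GLUT2, stood at 2.215, 3.42 and 5.915 CPM in homozygous crypts and at 15.45, 55.96, 56.99 and 62.73 CPM in heterozygous crypts, a log2 change of -3.57 (SE 0.62, adjusted p = 0.00803). In villi it ranged from 158.2 to 430.2 CPM (median 257.9) in the 6 homozygous and stood at 447, 558.6, 645.7 and 729.1 CPM in the 4 heterozygous libraries (log2 change -1.16, SE 0.25, adjusted p = 0.00282). All homozygous libraries lay below all heterozygous ones in both tissues. Slc2a5 also fell without overlap, by 3.37 on the log2 scale in crypts (SE 0.62, adjusted p = 0.00815) and by 1.30 in villi (SE 0.25, adjusted p = 0.00139). Its villus levels were 62.24 to 142.7 CPM against 166.6 to 270.9 CPM.

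Slc5a1 differed from these. Its crypt libraries stood at 102.8, 109.5 and 190.1 CPM (homozygous) and at 239.1 to 532.4 CPM (heterozygous), a log2 change of -1.54 (SE 0.33, adjusted p = 0.0145). The call was lost in 2 of 7 fits that left out 1 library, those without homozygous replicate 1 or 2 (adjusted p up to 0.0606), and without the filter on low counts. In villi the mean was 3498 ± 799.6 CPM (SD, n = 6) in homozygous and 2949 ± 481.8 CPM (n = 4) in heterozygous libraries. The villus groups overlapped and the gene was not called (log2 change 0.23, SE 0.19, adjusted p = 0.341).

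The sodium-dependent sugar carriers related to it fell in villi: Slc5a4a by 2.58, Slc5a4b by 2.03, Slc5a11, a myo-inositol carrier, by 1.66, and Slc5a9 by 1.54 on the log2 scale. Slc5a9 (SGLT4) stood at 26.08 to 41.17 CPM in the 6 homozygous and 87.18 to 95.13 CPM in the 4 heterozygous villus libraries (adjusted p = 3.45e-06). In crypts Slc5a4a fell by 5.52 (SE 0.81), Slc5a11 by 4.47 (SE 0.70), Slc5a4b by 3.99 (SE 0.87) and Slc5a9 by 1.92 (SE 0.22), while Slc2a7 fell by 3.60 in crypts and 1.50 in villi. The crypt call of Slc5a4b was lost without homozygous replicate 1 or 2 and without the filter. Slc5a4a and Slc5a4b are close paralogs, so reads could be split between them. The urate carrier Slc2a9 (log2 change -0.41 in crypts and -0.08 in villi) and the widespread glucose carrier Slc2a1 or GLUT1 (0.22 and 0.50) were not called in either tissue.

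**Figure D2:**
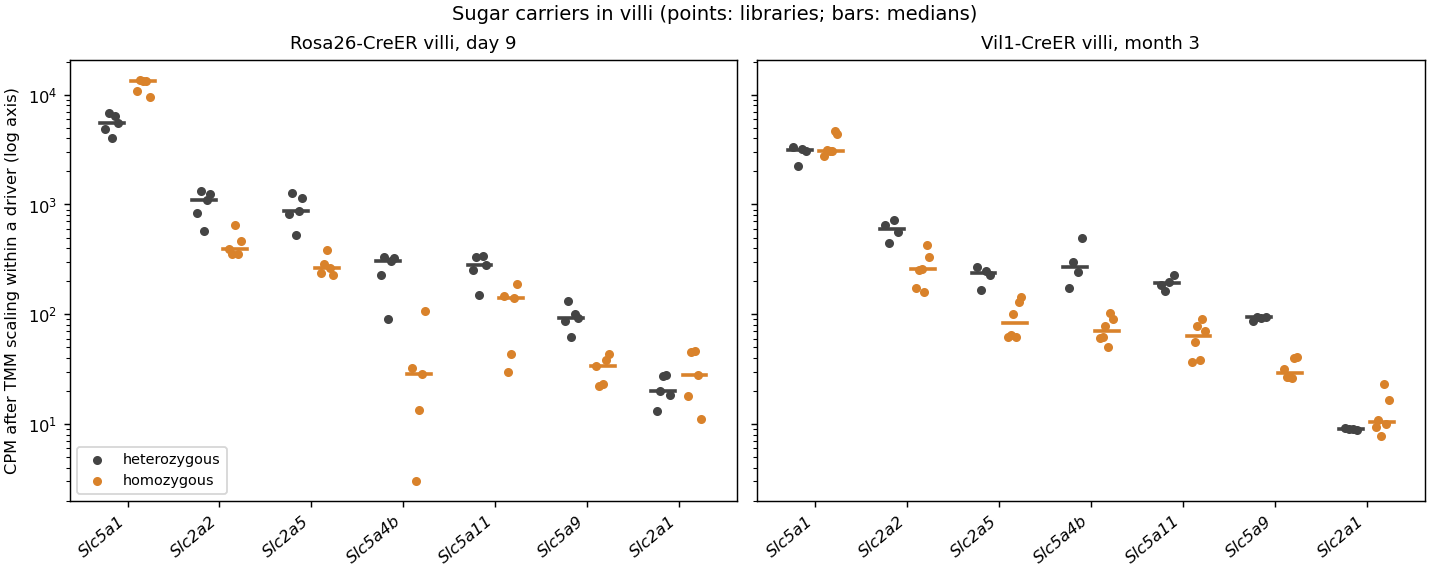
CPM after TMM scaling (log axis) of 7 sugar carriers in villi of each driver; points are libraries and bars are group medians. Slc5a1 lies at 2247 to 4655 CPM in both Vil1-CreER genotypes and at 9569 to 13600 CPM in homozygous Rosa26-CreER villi, while the medians of Slc2a2 and Slc2a5 are lower in the homozygous libraries of both drivers.

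Of 21 amino acid and peptide carriers, 14 fell in Vil1-CreER crypts and none rose, while in villi 8 fell and 3 rose. Slc15a1, the brush border di- and tripeptide carrier PEPT1, stood at 7.584, 7.882 and 23.14 CPM in homozygous and 34.01, 54.44, 81.28 and 87.24 CPM in heterozygous crypts (log2 change -2.25, SE 0.55, adjusted p = 0.0269). That crypt call was lost in 3 of 7 fits that left out 1 library, those without heterozygous replicate 1 or homozygous replicate 1 or 2, and without the filter. In villi it ranged from 573.6 to 1395 CPM in homozygous and 820.4 to 1269 CPM in heterozygous libraries and was not called (log2 change -0.24, adjusted p = 0.461). Slc6a19, the main brush border carrier of neutral amino acids, was not called in crypts (-0.91, adjusted p = 0.200) or villi (0.25, adjusted p = 0.370).

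Of the basolateral amino acid carriers, Slc7a8 fell by 2.36 in crypts (SE 0.27) and by 1.09 in villi (SE 0.23), and Slc43a2 fell by the same amounts, 2.36 (SE 0.33) and 1.09 (SE 0.20). The aromatic amino acid carrier Slc16a10 fell by 1.34 in villi (SE 0.17, adjusted p = 5.51e-05) and Slc7a15 by 1.60 (SE 0.23). Slc38a1 fell in both tissues, to 28.1 to 42 CPM from 71.3 to 92.61 CPM in crypts, and by 1.52 in villi (SE 0.17). The 3 that rose in villi were Slc6a6, a taurine carrier, Slc38a2, which takes up small neutral amino acids (149.6 ± 44.79 CPM, SD, n = 6, against 71.47 ± 14.61 CPM, n = 4, separate, log2 change 1.05, SE 0.22), and Slc7a1 (21.52 to 89.71 against 18.06 to 21.57 CPM, overlapping, log2 change 1.19, SE 0.37). The Slc7a1 call was lost in 3 of 10 fits that left out 1 library, those without heterozygous replicate 2, 3 or 4, and without the filter.

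Of 14 carriers of vitamins, nucleosides and heme, 4 were higher and 3 lower in villi, near the 20.9% and 21.6% of all genes. Slc23a2, a vitamin C carrier, rose by 1.17 (97.46 to 204.1 against 55.99 to 87.44 CPM, SE 0.18, adjusted p = 0.000251), while the brush border vitamin C carrier Slc23a1 fell by 2.02 (SE 0.30, adjusted p = 0.000260). Slc5a6, which takes up biotin and pantothenate, stood at 51.6 to 70.6 CPM (median 58.9) in the 6 homozygous libraries and at 16.4, 18.8, 29.8 and 42 CPM in the heterozygous ones (log2 change 1.14, SE 0.23, adjusted p = 0.00156). The concentrative nucleoside carrier Slc28a2 rose by 1.31 (SE 0.41), a call lost without heterozygous replicate 1 or 2 and without the filter. In crypts Slc19a2 rose by 0.63 (SE 0.15, adjusted p = 0.0174, lost without homozygous replicate 1) and Slc28a1, Slc52a2 and Slc23a1 fell.

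Of 19 metal carriers, 9 fell in crypts and 5 in villi, and 3 rose in villi. The villus counts are near the 21.6% lower and 20.9% higher of all genes. Slc30a2, which loads zinc into vesicles, had the largest fall of any called member in villi. It stood at 1.153 to 5.128 CPM (median 2.56) in the 6 homozygous and at 121.8, 124.4, 136.4 and 180.6 CPM in the 4 heterozygous villus libraries, a log2 change of -5.58 (SE 0.33, adjusted p = 2.06e-07). In crypts it stood at 0.5336, 0.5632 and 1.28 CPM against 19.62, 20.82, 28.44 and 33.25 CPM (log2 change -4.95, SE 0.37, adjusted p = 0.000175). The groups were separate in both tissues. The copper carrier Slc31a1 and the iron carrier Slc11a2 were lower in both tissues, and the iron exporter Slc40a1 was not called in villi (log2 change 0.31, SE 0.37, adjusted p = 0.531), where its level in this driver was low.

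Of 21 ion carriers, 9 rose and 2 fell in villi, whereas 1 rose and 8 fell in crypts. The bicarbonate cotransporter Slc4a7 rose in villi by 1.07 (260.7 to 504.7 against 134.6 to 217.6 CPM, SE 0.22), the anion exchanger Slc26a6 by 0.60 (SE 0.14), and the phosphate carrier Slc20a1 by 0.70 (lost without heterozygous replicate 1 or 4). Slc4a5, a sodium bicarbonate cotransporter, fell by 4.20 in crypts (SE 0.35, adjusted p = 0.000231) and by 1.92 in villi (SE 0.11, adjusted p = 6.74e-08). Its villus levels were 12.1 to 13.4 CPM against 40.3, 45.8, 50.2 and 56.8 CPM. Slc20a1 was the 1 that rose in crypts (0.67, SE 0.15, adjusted p = 0.0121, lost without homozygous replicate 1). The brush border sodium-proton exchanger Slc9a3 (NHE3) was at -1.56 in crypts with overlapping groups (SE 0.42, adjusted p = 0.0357), a call lost in 6 of 7 fits that left out 1 library (all but that without heterozygous replicate 2) and without the filter. In villi its log2 change was -0.06 (adjusted p = 0.832).

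Of 22 tested carriers of bile acids, lipids and organic ions, 14 fell in crypts and none rose, while in villi 7 fell and 5 rose. Slc5a12 fell by 5.13 in crypts (SE 0.96, adjusted p = 0.00825) and by 3.33 in villi (SE 0.29, adjusted p = 4.37e-06). The very long chain fatty acid enzyme and carrier Slc27a2 fell by 1.78 in villi (SE 0.20), and the abundant Slc27a4 was not called (0.15, adjusted p = 0.497). Slc51a, a subunit of the basolateral bile acid exporter, fell in crypts (-0.86, SE 0.26, adjusted p = 0.0454) and rose in villi (0.79, SE 0.22, adjusted p = 0.0121). The crypt call of Slc51a was lost in 5 of 7 fits that left out 1 library, all but those without heterozygous replicate 3 or homozygous replicate 3. Slc16a6, of the monocarboxylate carrier family, stood at 20.5 to 25 CPM in the 6 homozygous and 75.5, 90.2, 91.4 and 102 CPM in the 4 heterozygous villus libraries (log2 change -1.98, SE 0.11, adjusted p = 3.54e-08). In crypts it stood at 25.3 to 27.8 and 25.2 to 28.3 CPM and was not called (0.03, SE 0.08, adjusted p = 0.799).

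Of 23 mitochondrial carriers, 11 fell in crypts and 10 in villi. In villi Slc25a5 fell by 0.87 (SE 0.16, adjusted p = 0.000915) and the ornithine carrier Slc25a15 by 1.24 (SE 0.17, adjusted p = 0.000107), and the glutamate carrier Slc25a22 and the iron carrier Slc25a28 rose. Of 27 nucleotide sugar and organelle carriers, 14 fell and 3 rose in crypts, and 3 fell and 8 rose in villi. Slc35d1, which brings UDP-sugars into the endoplasmic reticulum, rose in both tissues, by 0.65 in villi (102.9 to 163.5 against 73.63 to 91.22 CPM, SE 0.13, adjusted p = 0.00128) and by 0.47 in crypts (SE 0.11, adjusted p = 0.0167, lost without homozygous replicate 1). Slc35f2 fell by 2.11 in villi (SE 0.17, adjusted p = 1.15e-06). Slc35e3 had the largest rise in crypts, to 9.46, 10.8 and 11.4 CPM from 4.55, 5.3, 5.56 and 5.82 CPM (log2 change 1.06, SE 0.13, adjusted p = 0.000942), and in villi it was at 7.81 to 21.9 against 16.1 to 29.5 CPM, overlapping and not called (-0.50, adjusted p = 0.128).

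The difference between the villus and crypt genotype effects was itself tested, in a fit of both tissues of the Vil1-CreER mice, whose crypts and villi come in part from the same animals. For 52 of 159 members the effect was higher in villi and for 3 it was lower, where 15.5% of all genes were called, 9.38% higher and 6.14% lower. With the animal as a block 43 were higher and 7 lower, and the call of Slc15a1 was lost (1.75, adjusted p = 0.0618). Leaving out 1 library gave 33 to 66 called members, with 33 when homozygous crypt replicate 1 or 2 was left out. Called positive differences included those of Slc5a11 (2.83, SE 0.61, adjusted p = 0.00856), Slc2a2 (2.43, SE 0.59, adjusted p = 0.0135), Slc4a5 (2.30, SE 0.30, adjusted p = 0.000440) and the nucleoside carrier Slc28a1 (2.13, SE 0.59, adjusted p = 0.0254). Slc15a1 had 2.04 and Slc5a1 1.80. The call of Slc15a1 was lost without homozygous crypt replicate 1 or 2, and that of Slc28a1 without either of these or without heterozygous villus replicate 1; both calls were lost without the filter.

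The 3 members with the lower effect in villi were Slc16a6 (-1.99, SE 0.14, adjusted p = 1.00e-06), Slc35e3 (-1.54, SE 0.33, adjusted p = 0.00742) and Slc37a4, which carries glucose 6-phosphate into the endoplasmic reticulum (-0.63, SE 0.21, adjusted p = 0.0462, lost in 14 of 17 fits that left out 1 library). Of the 82 members lower in crypts and 46 lower in villi, 40 were lower in both. That is 48.8% of the first and 87% of the second, against 44.0% and 40.4% over all genes. Higher in both were 4, which is 66.7% of those higher in crypts and 11.8% of those higher in villi, against 54.5% and 33.9% over all genes. Another 9 were lower in crypts and higher in villi: Slc6a6, Slc9a8, Slc18a1, Slc22a5, Slc33a1, Slc37a1, Slc39a11, Slc44a1 and Slc51a. Over all genes 145 of the 2996 lower in crypts were higher in villi.

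**Figure D3:**
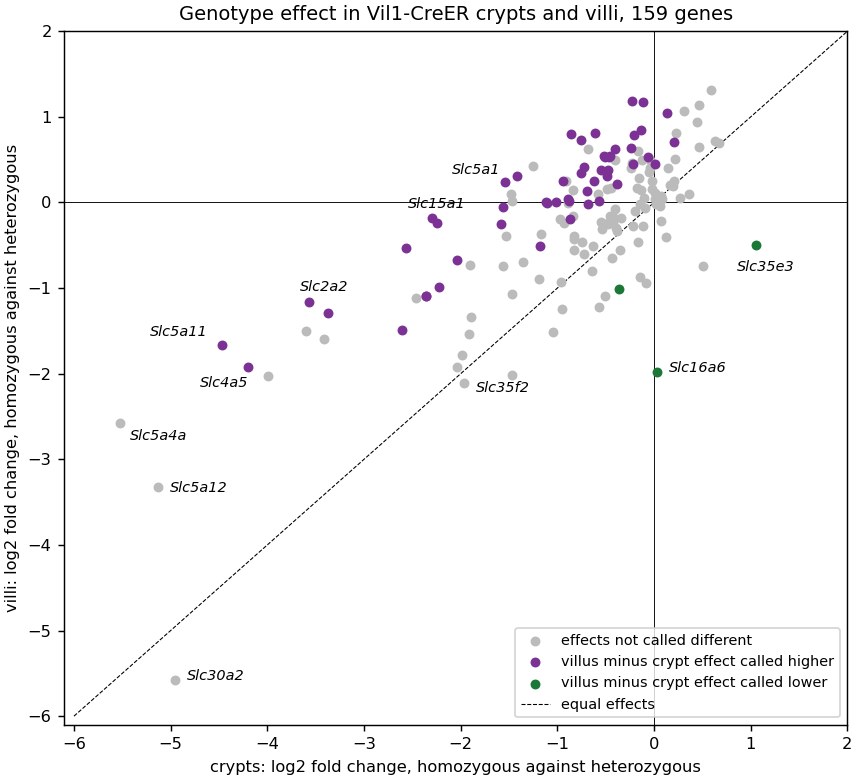
Log2 fold change (homozygous against heterozygous) of 159 members in Vil1-CreER crypts (x) and villi (y); purple and green points are members whose villus minus crypt effect was called higher (52) or lower (3), and the dashed line marks equal effects. Slc5a1, Slc2a2 and Slc15a1 lie far above the dashed line, and Slc16a6 lies below it, at 0.03 in crypts and -1.98 in villi.

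In Rosa26-CreER villi, described without a test, 3 of 160 members were more than 2-fold higher and 32 more than 2-fold lower in the homozygous libraries. Over all genes 16.3% were beyond 2-fold, 5.39% higher and 10.9% lower. The direction is tied to how members were chosen, from high levels in these heterozygous libraries, whereas all genes were not so chosen. Slc5a1 stood at 9569, 10900, 13280, 13490 and 13600 CPM in homozygous and at 4048, 4905, 5479, 6456 and 6773 CPM in heterozygous villi, a log2 difference of 1.07 without overlap. The others above 2-fold were Slc9a3 (1.46) and Slc5a6 (1.10). Slc9a3 stood at 1182, 2596, 2757, 4217 and 6393 CPM against 1013, 1057, 1077, 1209 and 1540 CPM, and 1 homozygous library lay within the heterozygous range. Of the 10 sugar carriers 7 were more than 2-fold lower, among them Slc2a2 at 353.2 to 655.9 against 576.1 to 1335 CPM (log2 difference -1.25, overlapping) and Slc2a5 at 226.2 to 383.8 against 529.8 to 1269 CPM (-1.80, separate). Slc5a4b had -2.83, Slc30a2 -3.05 and Slc40a1 -1.52.

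The lowest values were those of the short-chain monocarboxylate carrier Slc5a8 (log2 difference -4.56) and of Slc16a9, a carrier of the monocarboxylate family. Slc16a9 stood at 0.82, 1.09, 1.14, 4.94 and 6.25 CPM in homozygous and at 21.7, 31, 42.5, 55.4 and 69.1 CPM in heterozygous villi (-3.98). Enterocyte markers summed to 86000 to 131500 CPM in homozygous and 82610 to 119000 CPM in heterozygous villi. Immune markers summed to 1008 to 3372 against 3731 to 6905 CPM.

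Rosa26-CreER crypts had 23 members lower and 10 higher of 160 tested, where 20.2% of all genes were called, 11.6% lower and 8.63% higher. The rule did not use these libraries, but the 5 heterozygous ones come from the same animals whose villi chose the members. This contrast is therefore not independent of the rule. With Ddx3y as a covariate the split turned, with more members higher than lower. All 5 heterozygous crypt libraries but only homozygous replicate 1 were above 1 CPM of Ddx3y. In that fit the genotype effect thus rests on 1 homozygous library, and the part of sex cannot be told from it. Leaving out homozygous replicate 1 gave 6 higher and 44 lower. Slc30a2 stood at 1.297, 1.324, 3.174 and 8.849 CPM in homozygous and 24.64, 25.89, 27.26, 28.61 and 31.85 CPM in heterozygous crypts, without overlap (log2 change -2.89, SE 0.52, adjusted p = 0.00607). The other falls without overlap led with Slc5a4b (-2.76), Slc4a5 (-2.12) and Slc23a1 (-1.98), whose calls were all lost with the Ddx3y covariate (-1.63, -1.65 and -1.14).

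The rises were led by Slc20a1, at 19.1 to 19.4 CPM in homozygous and 7.73 to 12.9 CPM in heterozygous crypts (log2 change 1.07, SE 0.16, adjusted p = 0.00259). Slc35e3 rose to 8.04, 8.11, 8.70 and 8.91 CPM from 4.16, 4.74, 4.76, 4.84 and 5.05 CPM (0.91, SE 0.12, adjusted p = 0.00121), the mitochondrial carnitine carrier Slc25a20 by 0.86 (SE 0.17) and Slc35f5 by 0.65 (SE 0.17). The Slc35f5 call was lost without heterozygous replicate 2, 3 or 5. Slc9a3 (1.44, adjusted p = 0.0348) and Slc26a6 (1.20, adjusted p = 0.0496) were also called higher, and those calls were lost in 6 and 7 of 9 fits that left out 1 library. Slc5a1 was not called, at 342.2, 387.4, 437.3 and 1219 CPM against 263.6 to 540 CPM (log2 change 0.71, adjusted p = 0.222). Nor were Slc2a2 (-0.71, adjusted p = 0.296) and Slc2a5 (-0.57, adjusted p = 0.309), both of which were called lower without homozygous replicate 1 (-1.47 and -1.20). Of the 23 members lower in these crypts, 18 were also lower in Vil1-CreER crypts, which is 78.3% of the 23 and 22% of the 82, against 69.5% and 42.5% over all genes, and Slc9a3 was called in opposite directions.

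In the first organoid set, 69 of 159 tested members were lower and 8 higher with 4-OHT than with DMSO, where 17.2% of all genes were lower, 18.2% higher and 35.4% called. By class, 6 of 10 sugar carriers, 13 of 21 amino acid carriers and 10 of 22 bile acid, lipid and organic ion carriers fell. Slc7a8 stood at 3.85, 8.15 and 18.5 CPM with 4-OHT and 53.1, 58.3 and 124 CPM with DMSO (log2 change -2.96, SE 0.60, adjusted p = 0.00837, lost without the filter). Slc2a5 stood at 24.6, 32.4 and 37 CPM against 133, 135 and 245 CPM (-2.46, SE 0.28, adjusted p = 0.00111), and Slc2a2 at 56, 77.7 and 83.2 CPM against 182, 182 and 218 CPM (-1.44, SE 0.16, adjusted p = 0.00102). In each of these genes all treated libraries lay below all DMSO libraries.

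The largest falls without overlap in that set were those of Slc30a2 (-5.04), Slc7a15 (-3.87), the mitochondrial carrier Slc25a34 (-3.08) and Slc47a1 (-3.06), and Slc15a1 fell by 1.22. Slc5a1 stood at 776, 892.9 and 1443 CPM with 4-OHT and 1581, 1616 and 1738 CPM with DMSO, separate but just short of the threshold (-0.68, SE 0.22, adjusted p = 0.0504). It was called with the line as a block (-0.73) and without 4-OHT replicate 2 (-1.02). Slc5a6 rose from 34.5, 36.5 and 37.6 CPM to 68.1, 86.6 and 97 CPM (1.20, SE 0.13, adjusted p = 0.000991), and Slc22a23, Slc35d1 and Slc19a2 rose by 0.65, 0.65 and 0.59. Enterocyte markers were lower for 11 of 15 genes (10070 to 14330 against 21210 to 29140 CPM), and their part in these falls was not tested.

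In the second organoid set, flox/flox libraries had 51 members lower and 36 higher than flox/+ libraries of 157 tested, where 24.3% of all genes were lower, 22.6% higher and 46.8% called. Against Eif4g2(+/+) libraries they had 57 lower and 33 higher (23.5%, 21.9% and 45.3% of all genes). Both comparisons share the flox/flox libraries. Slc7a15, of the Slc7 family of amino acid carriers, stood at 0.0663, 0.0669, 0.237 and 0.413 CPM in flox/flox, 3.15, 3.56, 4.48 and 4.53 CPM in flox/+ and 4.12, 4.5, 5.23 and 5.71 CPM in +/+ libraries, with log2 changes of -4.22 (SE 0.37, adjusted p = 4.50e-07) and -4.55 (SE 0.36, adjusted p = 1.95e-07). Slc30a2 fell by 3.11 against flox/+, Slc47a1 by 2.59, Slc7a8 by 2.56 and Slc2a5 by 1.70. Slc2a2 (-0.40, adjusted p = 0.292) and Slc5a1 (0.08, adjusted p = 0.775) were not called.

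The rises in that set were again led by Slc5a6, at 38.4, 40.6, 70.8 and 76.3 CPM in flox/flox against 19.9, 20.7, 20.8 and 26.7 CPM in flox/+ and 19.4, 28.2, 32.3 and 32.7 CPM in +/+ libraries. Its log2 change was 1.37 (SE 0.26, adjusted p = 0.00127) against flox/+ and 1.01 (SE 0.25, adjusted p = 0.00739) against +/+. Slc35f5 rose by 0.96 and Slc19a2 by 0.91 against flox/+. Between flox/+ and +/+ libraries, Slc16a9 was the 1 member called (0.113% of all genes called, 0.0492% higher and 0.0633% lower), at 0.0404 to 0.198 against 1.84 to 3.02 CPM (-4.08, SE 0.60, adjusted p = 0.0200), a call lost in 6 of 8 fits that left out 1 library. The first and second organoid sets share no libraries. In both, 45 members were lower, which is 65.2% of the 69 and 88.2% of the 51 (64.5% and 49.3% over all genes). Of the 8 that rose in the first, 7 rose in the second (87.5%, against 66.0% over all genes).

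Spheroids of flox/flox lines had 40 members lower and 3 higher with 4-OHT than with DMSO of 158 tested, where 10.0% of all genes were lower, 9.01% higher and 19.1% called. The lines pair the libraries, and with line as a block in a fit of these groups alone 63 were lower and 5 higher. Slc4a5 stood at 0, 0, 0.0665, 0.102, 0.115 and 0.151 CPM with 4-OHT and at 2.29, 2.35, 5.13, 7.33, 9.07 and 14.3 CPM with DMSO (log2 change -6.45, SE 0.90, adjusted p = 6.05e-05). Slc5a9 stood at 9.52 to 19.4 CPM (median 11.4) against 21.3 to 63.8 CPM (median 57.7), a log2 change of -1.88 (SE 0.26, adjusted p = 5.79e-05). The 2 groups were separate for both genes. Slc40a1 fell by 2.52 (SE 0.47, adjusted p = 0.000948), with 1 DMSO library at 129.8 CPM inside the treated range of 34.91 to 131.4 CPM.

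Slc47a1 fell by 5.34 (SE 1.19). Slc2a2 (-4.90, SE 1.60, adjusted p = 0.0376), Slc2a5 (-4.72, SE 1.44, adjusted p = 0.0260) and Slc30a2 (-4.60, SE 1.47, adjusted p = 0.0327) were called lower, and those calls were lost in 7, 3 and 6 of 12 fits that left out 1 library and without the filter. Slc5a1 was not called (-1.69, adjusted p = 0.324) except with the line as a block (-2.94). The 3 that rose were Slc35f5 (0.70), Slc25a24 (0.67) and Slc35d1 (0.58), the last of which lost its call in 9 of 12 such fits and Slc25a24 in 5. Enterocyte markers were few in these cultures, 103.2 to 9631 CPM with 4-OHT and 1774 to 15270 CPM with DMSO, with 1 of 15 called lower.

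In flox/+ spheroids no member was called between 4-OHT and DMSO with edgeR, as no gene was (0%), and no member had an unadjusted p under 0.05 there. Slc5a9 stood at 38.8 to 59.1 CPM with 4-OHT and 39.2 to 73.3 CPM with DMSO in those lines. Between flox/flox and flox/+ spheroids with 4-OHT, 7 members were lower and 4 higher of 158, where 6.13% of all genes were lower, 4.36% higher and 10.5% called, and 7 in all were called without flox/+ replicate 5. Slc4a5 (-4.78, SE 0.87), Slc40a1 (-2.28, SE 0.48), Slc5a9 (-1.80, SE 0.27) and the choline carrier-like Slc44a3 (-1.03, SE 0.15) were among the lower, and Slc35d1 (0.97, SE 0.22) led the higher. With DMSO no member was called between these genotypes (0% of all genes). Both genotype tests treated lines whose codes share a stem as separate, and stem and genotype partly go together. There 26 of 158 tested members had an unadjusted p under 0.05. The share over all genes is not given here, so nothing is read from that number. The members' median log2 difference, flox/flox against flox/+, was 0.34 with DMSO and -0.01 with 4-OHT, against 0.002 and 0.01 over all genes. The part of this difference in medians with DMSO in the falls of flox/flox spheroids with 4-OHT was not tested.

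Spheroids and organoids that were both flox/+ with 4-OHT differed in 33 members higher and 39 lower in spheroids of 159 tested, where 25.1% of all genes were higher, 22.8% lower and 47.9% called. Their libraries lie in separate ranges of library numbers, and spheroids are of fetal origin, so culture type, age of origin and preparation cannot be told apart. Slc40a1 stood at 107.6, 296.2, 321.6, 471.4 and 593.5 CPM in spheroids and 9.344, 15.37, 18.8 and 21.39 CPM in organoids (log2 difference 4.44, SE 0.53, adjusted p = 0.000238). Slc2a5 stood at 0.1187, 0.6779, 1.08, 11.36 and 20.68 CPM against 95.41, 96.96, 102.1 and 120.7 CPM (-3.95, SE 1.10, adjusted p = 0.0162). Both genes were separate between the cultures. Others without overlap were Slc5a12 (3.98), Slc16a9 (3.19) and Slc28a2 (2.66), higher in spheroids, and Slc28a1 (-4.24), Slc47a1 (-3.88) and Slc4a5 (-3.78), lower.

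A-485 moved the members in both directions, with more called at each higher dose. At 3 µM 36 of 157 tested were lower and 12 higher (8.42% and 10.8% of all genes, 19.2% called). At 5 µM 58 were lower and 40 higher (25.1%, 24.4% and 49.6%), and at 10 µM 84 were lower and 43 higher (32.6%, 29.4% and 62.0%). The 3 doses share their 4 DMSO libraries, and without DMSO replicate 4 the count at 3 µM was 28. Slc5a1 stood at 1159, 1649, 1670 and 2051 CPM with DMSO, 301.1, 570.2, 722.8 and 875.2 CPM at 3 µM, 220.2, 347.9, 532.6 and 645 CPM at 5 µM and 82.16, 89.19, 95.37 and 107.3 CPM at 10 µM. Every treated library lay below every DMSO library, with log2 changes of -1.40 (SE 0.32, adjusted p = 0.00607), -1.90 (SE 0.32, adjusted p = 0.000153) and -4.13 (SE 0.36, adjusted p = 6.06e-08).

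Of the 10 sugar carriers, 9 were lower at 10 µM, and Slc2a1 was higher there (270 to 296 against 120 to 152 CPM, log2 change 1.08, SE 0.18, adjusted p = 4.96e-05) and at 5 µM (1.00). Slc2a1 was not called at 3 µM (0.28, adjusted p = 0.299). Slc2a5 changed by -1.87, -2.93 and -6.97 at the 3 doses, and the call at 3 µM was lost without DMSO replicate 3 or treated replicate 1 or 4. At 10 µM Slc15a1 fell by 4.02, Slc6a19 by 5.82, Slc7a8 by 3.73 and Slc9a3 by 4.72, the last to 0.758 to 2.58 CPM from 26.7 to 50.8 CPM.

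Several members had few or no reads at 10 µM. Slc30a10, a manganese exporter, had 2 reads in the 4 libraries together against 1592 with DMSO (23.64 to 34.35 CPM). The mitochondrial carriers Slc25a45 and Slc25a34, Slc2a7 and Slc51b, the other subunit of the bile acid exporter, had no reads. Against a floor of 3 reads over the group they were at least 300.2-fold, 50.73-fold, 115.8-fold and 29.35-fold lower. These bounds cover counting error only.

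Slc26a2, a sulfate carrier, and Slc25a24, a mitochondrial ATP-Mg and phosphate carrier, led the rises. Slc26a2 stood at 135 to 159 CPM with DMSO, 353 to 670 CPM at 3 µM, 621 to 896 CPM at 5 µM and 498 to 558 CPM at 10 µM (log2 changes 1.86, 2.34 and 1.86). Slc25a24 stood at 102 to 124, 156 to 294, 318 to 386 and 525 to 548 CPM (0.95, 1.66 and 2.27, SE 0.15 each). Both were above the DMSO range in all 12 treated libraries. Slc22a23, an organic ion carrier family member, rose by 1.82 at 10 µM (228 to 274 against 59.8 to 76.2 CPM) and Slc35f6 by 1.54. Slc5a6, which rose in the flox/flox organoids and villi, was lower at 10 µM (7.36 to 17.61 against 23.57 to 31.99 CPM, log2 change -0.94, SE 0.21, adjusted p = 0.000844). Enterocyte markers outside the Slc genes were lower for 13 of 15 and higher for 1 (3264 to 5775 against 12260 to 25260 CPM), and all 6 proliferation markers were lower.

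**Figure D4:**
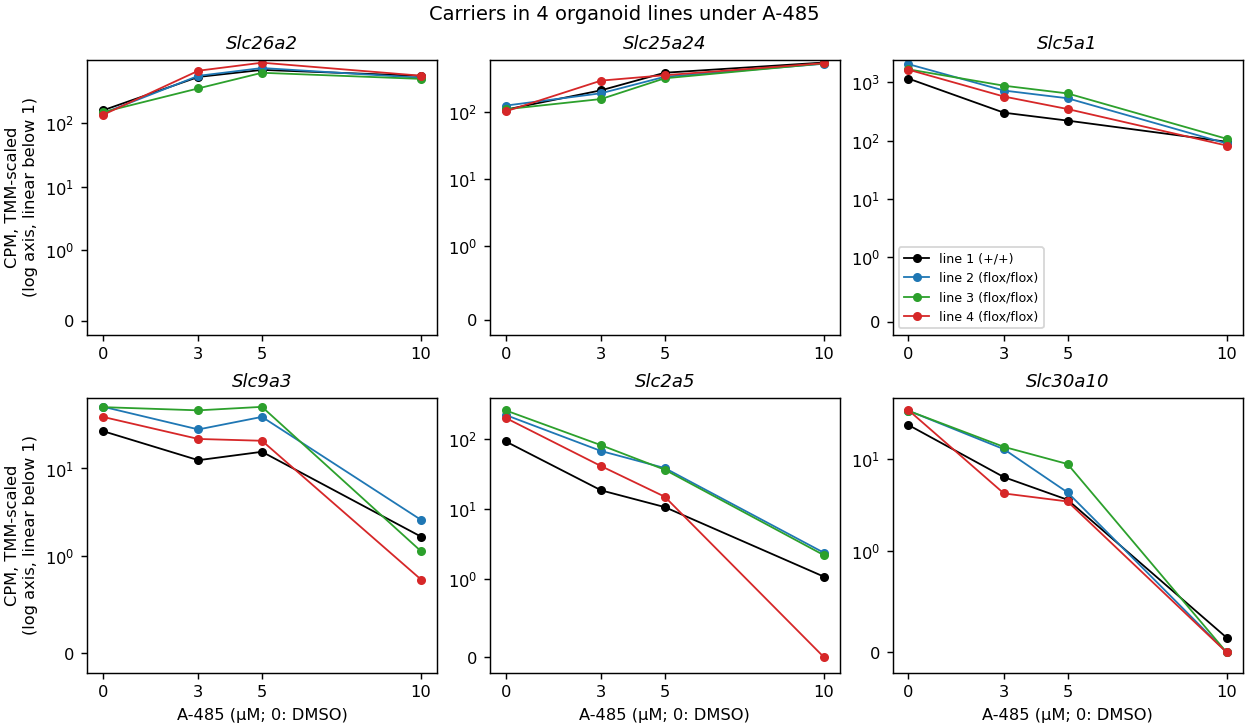
CPM of 6 members by A-485 dose (µM, 0 is DMSO) in each of the 4 organoid lines, on an axis that is logarithmic above its lowest part and includes 0. Slc26a2 and Slc25a24 are above their DMSO range at every dose, Slc5a1 is below it at every dose, and Slc30a10 ends at 0 in 3 of 4 lines.

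Some members were called in the same direction in comparisons that share no libraries. In Vil1-CreER crypts and villi and in both organoid sets, 25 members were called lower in all 4 comparisons and 2 higher, Slc19a2 and Slc35d1. Of the members, 156 were tested in all 4, and over all genes so tested 5.23% were lower in all and 4.30% higher. Adding the flox/flox spheroids left 15 lower, among them Slc2a5, Slc4a5, Slc5a9, Slc5a11, Slc16a10, Slc23a1, Slc30a2, Slc31a1, Slc38a1, Slc43a2 and Slc47a1. The 15 are 9.68% of the members tested in all 5, against 3.15% of all genes. Slc35d1 was the 1 member called higher in all 5 (2.63% of all genes were), and 12 of the 15 were also lower at 10 µM A-485 (7.79% of members and 2.46% of all genes tested in all 6). The first organoid set and the 10 µM A-485 comparison share 1 line but no libraries. Of the 69 members lower in the first and the 84 lower in the second, 55 were lower in both. These are 79.7% and 65.5%, against 62.2% and 36.6% over all genes. Another 6 were lower in the first and higher in the second: Slc7a7, Slc9a8, Slc26a2, Slc35b2, Slc38a10 and Slc44a3. Over all genes 202 of the 2633 lower in the first were higher in the second.

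**Figure D5:**
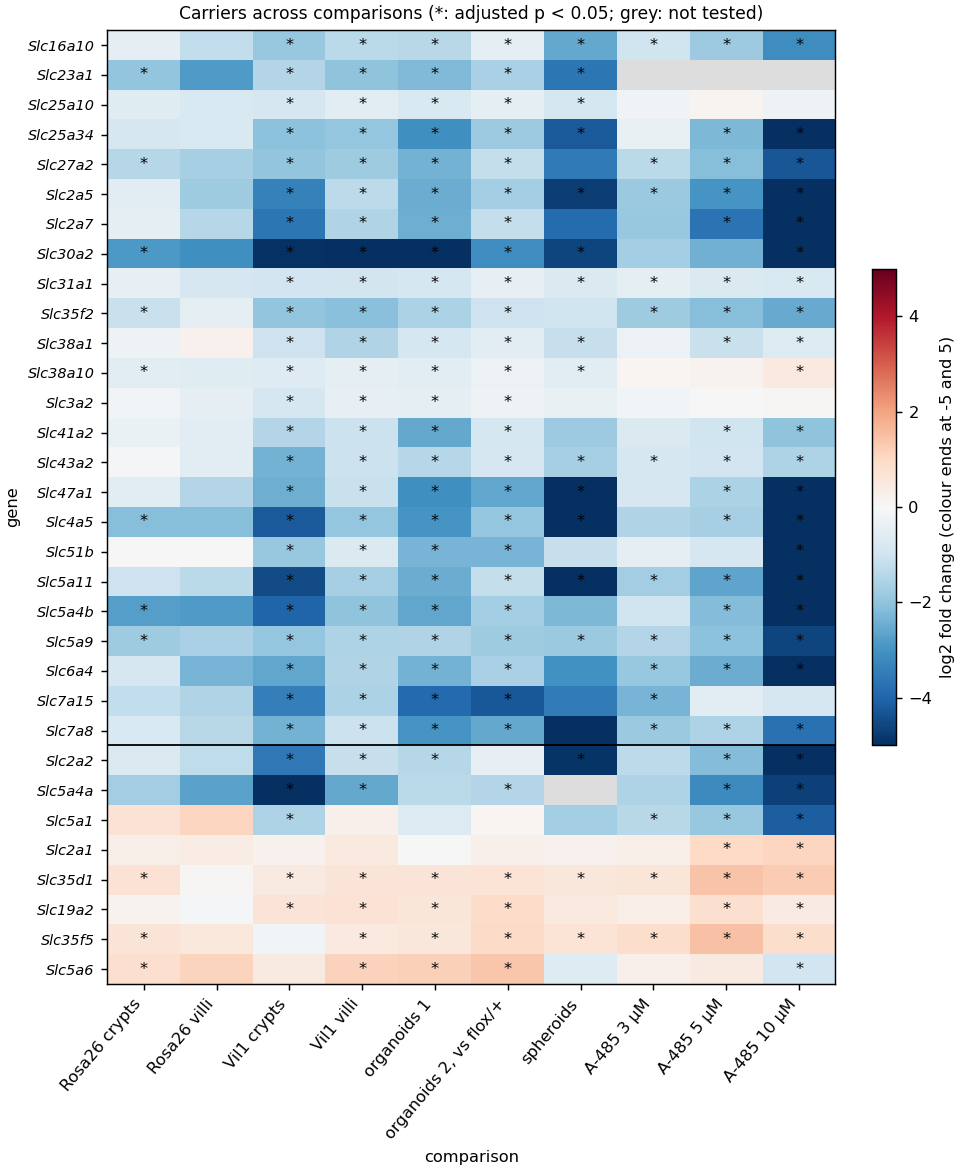
Log2 fold change of 32 members in 10 comparisons; the 24 above the line are from the 25 called lower in both Vil1-CreER tissues and both organoid sets, stars mark adjusted p under 0.05, grey cells were not tested and colours end at -5 and 5. Rosa26-CreER villi carry no stars because they were not tested; the Slc30a2 row is lower in every comparison shown, and the Slc5a1 row is lower with A-485 and in Vil1-CreER crypts and higher in Rosa26-CreER villi.

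Genes that work beside the carriers were followed by lists, whose counts stand against 17.7% of all genes lower and 11.6% higher in Vil1-CreER crypts, and 21.6% and 20.9% in villi. Of 14 tested genes for Na+/K+-ATPase subunits and membrane partners of carriers, 10 were lower in Vil1-CreER crypts, and in villi 5 of 13 were lower and 1 higher. Pdzk1, a scaffold that binds brush border carriers, was lower in villi (84.78 to 196.4 against 338.2 to 573.7 CPM, log2 change -1.65). Of 17 ABC transporters and other carriers, 9 were lower and 1 higher in crypts, and 4 of 18 were lower and 2 higher in villi. Of 19 transcription factors known to act on enterocyte genes, 7 were lower in crypts, and in villi 4 were lower and 1 higher, the latter being Hnf4a (964.9 to 1478 against 771.9 to 978.6 CPM, overlapping). At 10 µM A-485, 13 of these 19 were lower and 1 higher (32.6% and 29.4% of all genes), with Hnf4a at 332.8 to 431.6 against 885.8 to 1004 CPM.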

How the data were processed

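The values are read counts per gene for directional poly(A) RNA-seq, deposited by the authors as raw count tables in 4 tables; reads were aligned with HISAT2 2.0.5 to GRCm38/mm10 per the submitters' processing notes, and the counter, its strand setting and the annotation are not given in the sources used here. Overlapping genes and close paralogs such as Slc5a4a and Slc5a4b could therefore share reads. Each table was handled alone, and levels set across tables are named as such.

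Genes were filtered with filterByExpr, scaled by TMM and tested with the quasi-likelihood test of edgeR 4.0.16 in R 4.3.3 over all genes. A member is called when its Benjamini-Hochberg adjusted p is under 0.05, and SE is the log2 fold change divided by the square root of F. CPM in the text are TMM-scaled within a set, except for membership and the levels per kilobase, which use the library total. The scripts were first tested on simulated data. Where nothing in the labels names separate animals or cultures, p-values measure only the spread between these libraries.

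The members, their cargo classes and the other lists were chosen with earlier results of these data known. The text names a selection of the 10 members highest per kilobase, the 4 largest rises and falls among called members without overlap in each comparison, fixed nutrient, ion and metal carriers, and the genes at the membership level. Slc2a7, Slc2a9, Slc5a8, Slc5a9, Slc5a11, Slc6a6, Slc7a1, Slc16a6, Slc16a9, Slc25a24, Slc35d1 and Slc38a1 and the genes listed by overlap of calls are also named in comparisons where no rule picked them, after their values were seen. Same-numbered libraries deviated together in the first organoid set (r 0.369 to 0.524), flox/flox spheroids (0.402 to 0.803) and flox/+ spheroids (0.673 to 0.887), and A-485 numbers mark 1 line each per the labels. Heterozygous Vil1-CreER crypts and villi with the same number come from the same animals per the labels, as do homozygous crypts 1, 2 and 3 and villi 1, 2 and 4; the block in the interaction is the animal. DESeq2 1.42.0 was an alternative. One member's results are not reported here.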

Additional observations from a re-analysis of the deposited data

Results flagged for a closer look

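Among members printed library by library, 4 of 70 groups of 4 to 10 libraries held a library far from the others by Dixon's ratio, and chance gives about 1 in 20. Slc5a1 was highest in Rosa26-CreER homozygous crypt replicate 1 at 1219 CPM, Slc2a2 was lowest in Vil1-CreER heterozygous crypt replicate 2 at 15.45 CPM, Slc5a6 was highest in flox/+ organoid replicate 1 of the second set at 26.71 CPM, and Slc4a5 was highest in flox/+ spheroid replicate 5 with 4-OHT at 6.25 CPM.

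The genotype effect differed between Vil1-CreER villi and crypts, by the interaction test of edgeR, for 55 members. Named members with the higher effect in villi were Slc5a11 (log2 difference 2.83), Slc2a2 (2.43), Slc4a5 (2.30), Slc28a1 (2.13), Slc15a1 (2.04) and Slc5a1 (1.80). Those with the lower effect in villi were Slc16a6 (-1.99), Slc35e3 (-1.54) and Slc37a4 (-0.63).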

How the results depend on the processing

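Of 2519 recomputed values for single members, 2352 kept their direction and side of the threshold (in Rosa26-CreER villi, moved by less than 1 SE), 141 lost and 12 gained the call, 6 moved and 8 changed sign. With no library of the compared groups left out, counts of called members stayed within 1.5 times the count reported except as follows, and the cause was not tested. For flox/flox against flox/+ spheroids with 4-OHT (11 called), a fit of those groups alone gave 7, DESeq2's Wald test 20 (5 higher, 15 lower), no filter beyond 1 read 7 (1 and 6) and the replicate block 2 (0 and 2). That block joins different lines that share only a number, and 1 of 5 libraries correlated best with its own number. For flox/flox spheroids the replicate block gave 68 (43 reported), and for flox/+ against +/+ organoids, whose labels share only a number, it gave 0 (1 reported). The limit of 1.5 times was also passed with 1 library left out for Rosa26-CreER crypts, Vil1-CreER crypts, the interaction and 3 µM A-485. It was passed too for spheroid genotypes with 4-OHT and for flox/+ against +/+ organoids. Ranges with 1 library left out were 33 to 37 for Rosa26-CreER villi (35 reported), 25 to 50 for Rosa26-CreER crypts (33), 57 to 100 for Vil1-CreER crypts (88), 68 to 83 for villi (80), 140 to 142 for villi against crypts (143) and 33 to 66 for the interaction (55). They were 58 to 93 for the first organoid set (77), 74 to 86 and 76 to 88 for flox/flox against flox/+ and +/+ organoids (87 and 90), 0 to 1 for flox/+ against +/+, 30 to 45 for flox/flox spheroids, 7 to 15 for spheroid genotypes with 4-OHT, 0 for flox/+ spheroids and for genotypes with DMSO, 56 to 80 for spheroids against organoids (72), and 28 to 55, 84 to 98 and 123 to 130 for 3, 5 and 10 µM A-485 (48, 98 and 127).

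The replicate block gave 100 called members (15 higher, 85 lower) in the first organoid set, 71, 107 and 132 at the 3 A-485 doses, 144 for villi against crypts and 50 for the interaction, where libraries are paired. In Vil1-CreER villi, where the labels share only a number, it gave 25 higher and 54 lower (34 and 46 reported); 2 of 4 libraries there correlated best with their own number. Signs changed for Slc2a2 (0.45) and Slc2a5 (0.50) in Rosa26-CreER crypts with the Ddx3y covariate, for Slc6a19 (-0.038) in Vil1-CreER villi with the replicate block, and with 1 library left out for Slc16a6 in Vil1-CreER crypts (-0.0044 to 0.10), Slc9a3 in villi (-0.26 to 0.15) and Slc5a1 in the second organoid set (-0.041 to 0.25). The call of Slc5a9 in Rosa26-CreER crypts was also lost with the covariate (-0.94), that of Slc2a2 in the first organoid set with A-485 libraries in the fit (-1.43), and that of Slc2a5 between spheroids and organoids with DESeq2 (-3.98) and without the filter. In Rosa26-CreER crypts the fit with the Ddx3y covariate takes its genotype effect from 1 homozygous library, replicate 1. Members near 1 CPM, such as Slc30a2 in homozygous crypts, rest on few reads.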

Other observations

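Control villi of the drivers differed in several members, given as values only because driver, time after tamoxifen and table differ together. Slc40a1, the iron exporter ferroportin, stood at 429.5 to 1119 CPM in 5 heterozygous Rosa26-CreER villus libraries and at 1.583 to 4.249 CPM in 4 heterozygous Vil1-CreER villus libraries, a ratio of medians of 238.9. Slc16a9 stood at 21.7 to 69.07 against 0.2567 to 0.3955 CPM, and the folate and heme carrier Slc46a1 at 908 to 1735 against 105.3 to 165.3 CPM. The ranges of each of these 3 genes were separate. Over all 160 members the median ratio was 1.38, with 10 above 4 and 2 under 0.25. The latter were Slc5a8 (0.139) and the mitochondrial iron carrier Slc25a37 (0.172). The Rosa26-CreER libraries in these ratios chose the members, so high ratios are tied to the rule. In the A-485 set, Slc40a1 with DMSO stood at 140 CPM in the Eif4g2(+/+) line and 20.47 to 41.41 CPM in the 3 flox/flox lines.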
